A study of Mus musculus with 11 samples.

Results

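Klk6-positive mature oligodendrocytes were 871 of the 132437 brain cells that passed the limits on cells (0.658%) and 8.36% of the 10419 mature oligodendrocytes. The rule took cells with more than 500 genes, more than 1000 UMIs and under 25% mitochondrial UMIs, in which at least 4 of the 6 oligodendrocyte genes Mog, Mag, Ermn, Opalin, Ugt8a and Aspa had a UMI and fewer than 2 of the 7 genes P2ry12, Tmem119, Cldn5, Aqp4, Pdgfra, Kcnj13 and Dcx did. Among these mature oligodendrocytes, the members had at least 2 UMIs of Klk6. They were compared with the 8790 cells of the same rule that had 0 Klk6 UMIs, and the 758 cells with exactly 1 were left out of both classes. The cells were chosen by the measured UMIs of these 14 genes, so that their levels are descriptions and carry no test.

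The libraries came from 11 mice, 1 library of the right brain per mouse, made with a 10x Genomics 3′ kit that counts molecules by UMI. The sham + WT group held 3 mice, the MCAO/R + WT group 2, the sham + Lrg1-/- group 3 and the MCAO/R + Lrg1-/- group 3. MCAO/R is a stroke model in which a filament closes the middle cerebral artery for a time and is then withdrawn. The labels do not give the times of occlusion and reperfusion of the sequenced mice. WT mice were male C57BL/6 of 8 to 10 weeks. The Lrg1-/- mice carry a conventional knockout from another vendor, were backcrossed for 4 generations to C57BL/6N (the study's methods give their strain once as C57BL/6J and once as C57BL/6N) and were 3 months old, so that genotype, vendor, substrain and age cannot be told apart.

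Kallikrein-related peptidase 6, the product of Klk6, is a secreted serine protease that is abundant in the oligodendrocytes of the spinal cord and brainstem. It can cut myelin proteins and protease-activated receptors, and it belongs to a family whose genes lie side by side on 1 chromosome. Mature oligodendrocytes wrap axons in myelin, a lipid-rich sheath that depends on steady synthesis of cholesterol and galactolipids, and they fall into states that mouse surveys tell apart by genes such as Klk6, Hopx, Anln and S100b or by Ptgds, Il33, Car2 and Grm3. In the GENCODE M21 annotation of GRCm38, Klk6 lies at chr7:43824499-43832030 on the plus strand. Klk7 (chr7:43811294-43816359), Klk8 (chr7:43797577-43803826) and Klk9 (chr7:43791891-43796757) lie before it on that strand.

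Mog, which encodes a protein of the outer myelin surface, ranged from 810 to 2243 CPM over the 11 mice, where CPM are UMIs of a gene divided by all UMIs of the class in 1 mouse and multiplied by 1000000. Anln, the gene of the actin-binding protein anillin and no part of the rule, ranged from 289 to 1321 CPM in the members against 188 to 387 CPM in the cells with 0 Klk6 UMIs, and was the higher of the 2 classes in every mouse. Lrg1 itself was at 0 UMIs over all cells in 5 of the 6 Lrg1-/- libraries and at 0.00593 CPM in the sixth, against 1.72 to 5.76 CPM in sham + WT mice and 132 and 113 CPM in MCAO/R + WT mice.

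Depth and cell numbers were uneven. Libraries held 37159497 to 171813031 UMIs, and the members of a mouse summed to 108181 to 3819383 UMIs. The members were deeper than the other class in every library, with a median of 9752.5 to 32102.5 UMIs per cell in single libraries against 3712.5 to 14874.5 in cells with 0 Klk6 UMIs. A cell with more UMIs more easily reaches 2 of Klk6. Among cells that should lack Klk6, the share with at least 2 of its UMIs was highest in MCAO/R + Lrg1-/- mice. It was 0.444% to 1.40% there among cells with microglial genes and 0.527% to 2.56% among cells with endothelial genes, against at most 0.115% and 0.126% in the other 8 libraries. The part of this background in the members of that group was not tested. No member barcode was shared between libraries. Doublet scores marked 37 of the 871 members. The sham + Lrg1-/- libraries gave 14, 4 and 4 members, under the 20 asked for in the fits across genes, and comparisons between groups therefore rest on the other 8 libraries, which had at least 39 members each.

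The number of Klk6 UMIs in members ran from the limit of 2 upward without a gap. Exactly 2 were found in 186 members, 3 or 4 in 169, 5 to 9 in 198, 10 to 19 in 160 and 20 or more in 158. Just outside the limit, the cells with 1 UMI had on average 80.9 CPM of Hopx and 122 CPM of S100b over 9 libraries that held 749 of them. Just inside it, cells with 2 to 4 Klk6 UMIs had 125 CPM of Hopx and 275 CPM of S100b over 8 libraries.

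The first comparison concerned the share of Klk6-positive cells among mature oligodendrocytes in each mouse. Of the cells with at least 4 of the 6 oligodendrocyte genes, the rule on the 7 other genes had removed a part. It removed 928 of 2247, 662 of 1494 and 413 of 893 in sham + WT mice. In MCAO/R + WT mice it removed 274 of 987 and 669 of 2729. The numbers were 446 of 751, 185 of 270 and 488 of 568 in sham + Lrg1-/- mice. In MCAO/R + Lrg1-/- mice they were 578 of 828, 330 of 1031 and 2662 of 6256. The part of this loss in the shares was not tested. The share was 5.08%, 7.33% and 13.1% in sham + WT mice and 13.0% and 8.64% in MCAO/R + WT mice. In the sham + Lrg1-/- group it was 4.59%, 4.71% and 5.0%, and in MCAO/R + Lrg1-/- mice 15.6%, 19.4% and 5.90%. The groups overlapped except that each sham + Lrg1-/- share lay below all others. These shares rest on 14, 4 and 4 members. The separation was kept with doublets left out (at most 5.06% against 5.33% in sham + WT replicate 1, the lowest other share). It was also kept after thinning each cell to 2000 UMIs (at most 1.71% against 2.20% in that mouse). Stricter rules for the cells did not keep it. With at least 5 of the 6 oligodendrocyte genes the shares were 5.56%, 6.67% and 7.02%, against 5.92% in sham + WT replicate 1. With a mitochondrial limit of 10% they were 5.68%, 6.56% and 7.14%, against 5.26% in that mouse. The members of MCAO/R + Lrg1-/- replicate 5, the library with the lowest share after MCAO/R, were 24.3% of all members.

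With all 11 mice, neither surgery nor genotype passed the test of the share. Group means were 8.51 ± 4.15% (SD, n = 3), 10.8 ± 3.11% (n = 2), 4.77 ± 0.211% (n = 3) and 13.6 ± 6.96% (n = 3) in the same order. The difference between MCAO/R and sham, averaged over both genotypes, was 5.60 percentage points (exact permutation test within genotypes, two-sided p = 0.075). Without MCAO/R + Lrg1-/- replicate 5 the difference was 7.53 points (exact p = 0.03) and without sham + WT replicate 3 it was 6.75 points (exact p = 0.0167). Without any other sham or MCAO/R + Lrg1-/- mouse the exact p was 0.09 to 0.12. Without MCAO/R + WT replicate 1 or 2 the difference was 4.50 and 6.70 points. With all mice it was 8.87 points in Lrg1-/- mice (exact p = 0.1) and 2.33 in WT mice (exact p = 0.6). The genotype difference, averaged over both surgeries, was -0.478 points (exact p = 0.87), of opposite sign after MCAO/R (2.79, exact p = 0.7) and after sham (-3.75, exact p = 0.1), and the smallest p within 1 genotype or surgery is 0.1. When each cell was thinned to 2000 UMIs, the surgery difference was 2.23 points (exact p = 0.26), with 5.73 in Lrg1-/- and -1.26 in WT mice, and in 2 of the sham + Lrg1-/- libraries 0 of 81 and 0 of 74 cells were Klk6-positive, which allows shares of up to 3.70% and 4.05% at a floor of 3 cells (exact 95% upper limits of 4.45% and 4.86%). The smallest p that the 200 arrangements over both genotypes or surgeries allow is 0.005.

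**Figure D1:**
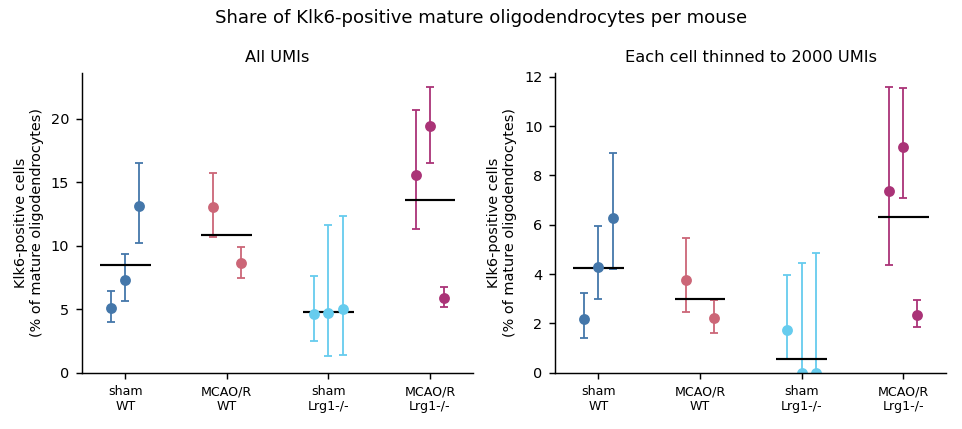
Share of Klk6-positive cells among mature oligodendrocytes (y axis, percent) in each of the 11 mice (points, with exact 95% binomial intervals for counting error) by group (x axis), with all UMIs on the left and with every cell thinned to 2000 UMIs on the right. Black lines are group means. The MCAO/R + Lrg1-/- mice spread from 5.90% to 19.4% with all UMIs, wider than the 3 sham + Lrg1-/- mice, which lie between 4.59% and 5.0%.

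Both classes were then compared within the same mice, in the 8 libraries with at least 20 cells of each. Nkx2-9 and Hopx, which encode homeodomain proteins, and S100b, the gene of a calcium-binding protein of glia, were among the genes higher in the Klk6-positive class, while Ptgds, the brain prostaglandin D synthase, and Synpr, a synaptic vesicle protein, were lower. Of 13113 genes tested outside the rule, 2846 were called (21.7%), 1134 of them higher (8.65%) and 1712 lower (13.1%) in the Klk6-positive class. Calls needed both a fold change above 1.28 and an adjusted p (edgeR quasi-likelihood test, Benjamini‒Hochberg) below 0.05. All values of single mice below are in CPM and in the order of the replicate numbers.

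Nkx2-9 had the largest increase of the genes named for size. In Klk6-positive cells it was at 116, 143 and 127 in sham + WT mice, 10.2 and 9.43 in MCAO/R + WT mice, and 15.2, 8.54 and 22.6 in MCAO/R + Lrg1-/- mice. In cells with 0 Klk6 UMIs it did not exceed 2.84 in any mouse. Each of these Klk6-positive values lay above that. The log2 difference was 5.35 ± 0.32 (SE, adjusted p = 6.54e-07), and the naming rule asked for an increase in every fitted mouse.

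Hopx was at 500, 320 and 349 in the Klk6-positive cells of the sham + WT group against 14.4, 10.9 and 9.92 in the cells with 0 Klk6 UMIs of the same mice. After MCAO/R the Klk6-positive cells had 474 and 381 in WT and 170, 91.9 and 240 in Lrg1-/- mice, against 35.0 and 29.9 and then 52.9, 24.0 and 23.6. The lowest Klk6-positive value of Hopx, in MCAO/R + Lrg1-/- replicate 2, still lay above the highest value of the other class. Its log2 difference was 3.76 ± 0.37 (adjusted p = 2.16e-05). S100b was at 1082, 1056 and 1118 against 40.2, 56.3 and 52.6 in the sham + WT mice and between 93.4 and 371 in Klk6-positive cells after MCAO/R, a range above the 24.4 to 39.7 of the other class. Its log2 difference was 3.38 ± 0.36 (adjusted p = 3.69e-05).

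The other genes that rose most and passed the naming rule were St8sia5, which makes sialylated gangliosides (log2 difference 4.24), the vesicle GTPase Rab37 (3.52), Greb1l (3.51), the homeobox gene Barx2 (3.43), Clgn, a chaperone of the endoplasmic reticulum (3.01), Arfgef3 (2.89) and the receptor tyrosine kinase Alk (2.84). The call of Alk was lost after thinning to 2000 UMIs (2.19, adjusted p = 0.0610). The largest decreases were those of Synpr (-3.55), Ptgds (-2.62), the macrophage mannose receptor Mrc1 (-2.54), the GABA receptor subunit Gabrr2 (-2.49), Kank1 (-2.46), the planar polarity gene Vangl1 (-2.44), Lypd6 (-2.37), the adhesion molecule Cntn1 (-2.34), the junctophilin Jph4 (-2.31) and the kinesin Kif21b (-2.29). Mrc1 marks macrophages, and the transcripts of other cell types were in part lower in the Klk6-positive class: 8 of 8 microglial genes tested were called lower, 4 of 5 erythroid and 6 of 6 endothelial ones. C1qa, a microglial complement gene, was at 102 to 143 against 129 to 251 in the sham + WT mice (log2 difference -0.63, adjusted p = 0.00541). Their part in the other decreases was not tested.

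**Figure D2:**
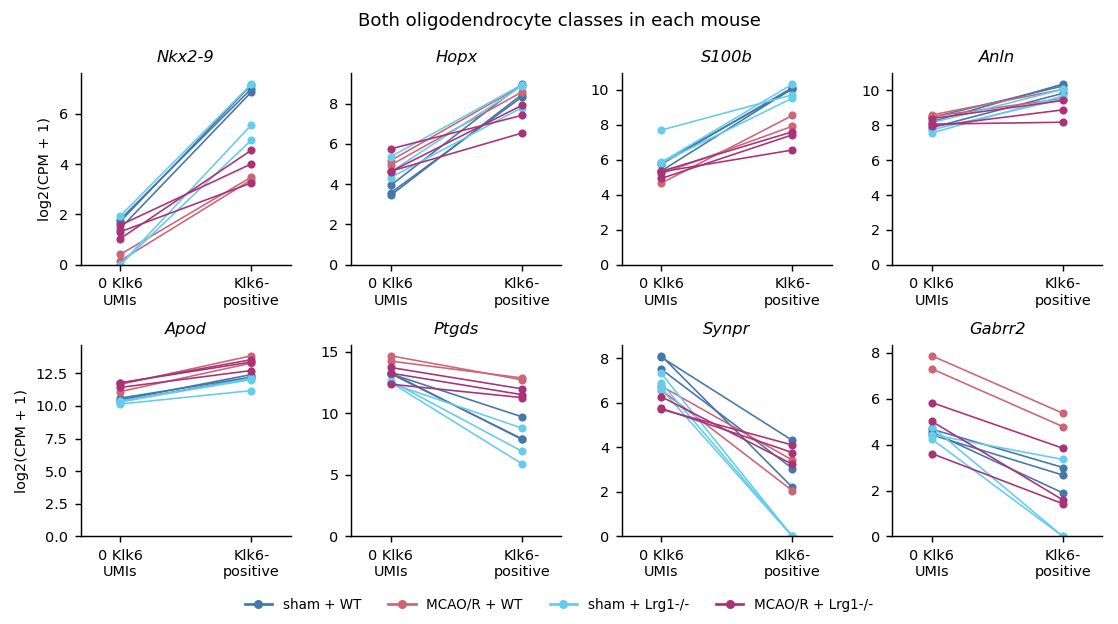
Levels of 8 genes as log2(CPM + 1) (y axis) in mature oligodendrocytes with 0 Klk6 UMIs and in Klk6-positive ones (x axis). Each line joins the 2 classes of 1 mouse, in the colour of its group. Lines rise in every mouse for Nkx2-9, Hopx, S100b, Anln and Apod and fall in every mouse for Ptgds, Synpr and Gabrr2, and the sham + Lrg1-/- lines come from 14, 4 and 4 members. For all of these genes except Anln and Apod, the naming rule asked for 1 direction in every fitted mouse.

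Genes that mouse surveys report together with Klk6 rose as a group. Of 7 tested, 6 were called higher, 0 lower, with a median log2 difference of 2.08 against -0.03 over all genes tested. Besides Hopx and S100b they were Anln (1.33), Mgst3, a microsomal glutathione transferase (2.45), Anxa5, a phospholipid-binding annexin (2.08), and Hapln2, a link protein of the node of Ranvier (1.44). Nkx6-2 was at 357 to 572 against 379 to 456 in the 5 WT mice and did not pass the test (0.29, adjusted p = 0.0821). Of the 5 genes of the Ptgds-type state (Ptgds, Il33, Car2, Grm3 and Apod), 2 were higher and 2 lower. Ptgds was at 842, 235 and 243 against 9457, 9930 and 9502 in the sham + WT mice, and the glutamate receptor gene Grm3 was lower too (-0.89, adjusted p = 0.000127). Apod, which encodes an apolipoprotein, was 1 of the 2 higher genes of this state, by 1.81 ± 0.11 (adjusted p = 7.40e-07). It was at 4453, 5423 and 4739 against 1315, 1411 and 1549 in the sham + WT mice.

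Enzymes of cholesterol synthesis were higher in Klk6-positive cells, with 15 of 22 called higher, 0 lower and a median log2 difference of 0.56. Sqle, squalene epoxidase, stood at 134, 150 and 156 against 64.8, 61.2 and 51.5 in the sham + WT mice (1.14 ± 0.10, adjusted p = 1.50e-05). Hmgcs1, the HMG-CoA synthase of the pathway, differed by 0.88 and the isomerase Idi1 by 1.01. Myelin protein genes had no common direction, with 3 higher and 3 lower of 15. Pmp22 rose by 1.94 ± 0.23 (adjusted p = 8.15e-05), at 872, 750 and 713 against 117, 122 and 115 in the sham + WT mice, while the tetraspanin Cd9 was lower by -1.27 ± 0.31 (adjusted p = 0.00897). Among channels and gap junction genes, 3 of 9 were higher and 2 lower. The connexin Gjb1 differed by 1.44 and the potassium channel gene Kcna2 by -1.46.

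Serine proteases and their inhibitors were part of the difference. Klk7, Klk8 and Klk9 were higher by 5.50, 3.45 and 5.2 among the 4 kallikrein and receptor genes tested (0 lower). This rested on the mice after MCAO/R: in sham + WT mice Klk8 was at 1.81, 1.79 and 0.781 in Klk6-positive cells against 4.03, 2.28 and 0.953 in the other class. Klk7 was at 63.4 in MCAO/R + WT replicate 1 and at 0 in replicate 2, and its call was lost under DESeq2. Of 10 genes of serine protease inhibitors, 3 were higher and 2 lower. Serpinb1a, a neutrophil elastase inhibitor, differed by 1.36 and Serpina3n by 2.01.

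The immediate early genes fell together, with 17 of 18 called lower and 0 higher at a median log2 difference of -0.80. Fos, the leading member of the AP-1 family, was at 862, 520 and 645 against 1097, 879 and 731 in the sham + WT mice and at 685 and 1144 against 1725 and 1787 in the MCAO/R + WT mice (-0.67, adjusted p = 0.000854). Egr1 differed by -0.83 (adjusted p = 0.000267). These genes are known to respond to the dissociation of tissue. Genes of newly formed oligodendrocytes were lower in 4 and higher in 1 of 8. Gpr17, a receptor of committed precursors, had 2 UMIs or fewer per group in Klk6-positive cells, and the pooled ratio of the other class to them was 18.5 (counting interval 6.27 to 90.1). Tcf7l2 was lower by -1.05, and Enpp6, a choline phosphodiesterase, was the one that rose (1.85 ± 0.19, adjusted p = 2.59e-05). Of 12 iron genes tested, 3 were higher and 3 lower, at a median of 0.08. Transferrin (Trf), ferritin heavy chain (Fth1) and the ferrireductase Steap3 were higher by 1.11, 0.71 and 2.0, while ceruloplasmin (Cp), the iron exporter Slc40a1 and heme oxygenase 1 (Hmox1) differed by -1.18, -0.78 and -0.78.

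Levels of these genes ran parallel to the number of Klk6 UMIs in a cell. Means over libraries in cells with 0, 1, 2 to 4, 5 to 9 and 10 or more Klk6 UMIs were 25.8, 80.9, 125, 220 and 489 CPM for Hopx and 57.9, 122, 275, 327 and 727 CPM for S100b. Ptgds ran the other way, from 10970 to 7714, 4947, 4541 and 1828 CPM. Opalin, which the rule used, went from 736 to 129 CPM over the same steps, while Mog stayed between 1211 and 1473 CPM. The median depth of the cells also rose over these steps, from 5882 to 20680 UMIs, and each step holds the libraries with enough cells (11, 9, 8, 5 and 8), so that these means are a description. With every cell thinned to 2000 UMIs, 1052 of 9038 genes tested were called between the classes. The classes were formed anew from the thinned counts, and cells under 2000 UMIs were left out. MCAO/R + Lrg1-/- replicate 1 then had 17 members and is missing from all fits after thinning.

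**Figure D3:**
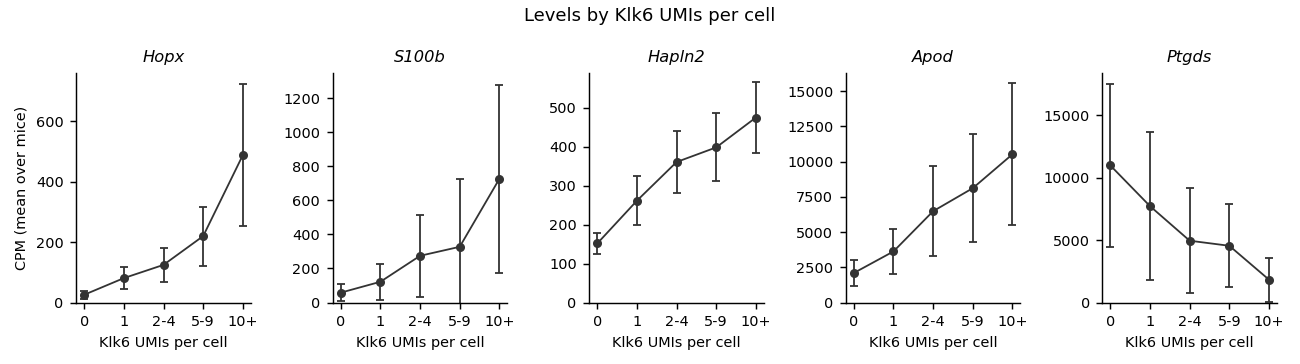
Mean level (y axis, CPM) of 5 genes by the number of Klk6 UMIs in the cell (x axis), with the SD over the 5 to 11 libraries that had enough cells in that step. Hopx, S100b, Hapln2 and Apod, the last a gene of the Ptgds-type state, go up with Klk6. Ptgds goes down from 10970 to 1828 CPM.

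The effect of MCAO/R on Klk6-positive cells was tested between the MCAO/R + WT and sham + WT groups. Genes known to respond to glucocorticoids, among them Fkbp5, Sgk1 and Zbtb16, were higher after MCAO/R, and genes of cholesterol synthesis and myelin were lower. Of 11006 genes tested, 1450 were called (13.2%), 688 higher (6.25%) and 762 lower (6.92%), with a median log2 difference of 0.02 over all genes. The balance of directions turned with no filter on low counts (1319 higher and 876 lower) and after thinning to 2000 UMIs (123 and 82). It also turned with at least 3 Klk6 UMIs (714 and 706) and without either MCAO/R + WT mouse. The spread was estimated over all 8 libraries, since the MCAO/R + WT group holds 2 mice. After thinning to 2000 UMIs, 30 of the 51 called genes named below were tested and 7 lost their calls, at -0.83 for Olig1, -1.24 for Cyp51, -1.54 for Padi2, -0.98 for Mgst3, -0.70 for Anxa5, 1.04 for Kcna1 and 2.55 for Klk8 (adjusted p = 0.0745 to 0.475).

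Fkbp5, a co-chaperone that limits the glucocorticoid receptor, was at 2.72, 5.38 and 3.91 in sham + WT mice and at 385 and 437 in MCAO/R + WT mice. The groups lay far apart, with a log2 difference of 6.55 ± 0.28 (adjusted p = 1.05e-06). Sgk1, the serum- and glucocorticoid-induced kinase, was at 88.9, 60.1 and 46.1 and then at 1692 and 2064 (4.74 ± 0.29, adjusted p = 1.97e-05). Both mice after MCAO/R exceeded every sham mouse in both genes. Of the 13 genes of the glucocorticoid list, 11 were called higher and 1 lower, with a median of 4.40. Zbtb16 rose by 4.40, Klf9 by 2.28, the cell cycle inhibitor Cdkn1a by 4.63, the lipid droplet gene Plin4 by 6.82, and the metallothioneins Mt1 and Mt2, which bind zinc, by 5.51 and 6.27. Mt1 was at 157, 191 and 152 in the sham mice and at 13599 and 2864 after MCAO/R, so that its size differed widely between these 2 mice.

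Genes linked to injured oligodendrocytes overlapped with that list in Plin4, Cdkn1a and Sgk1. Of 16 tested, 10 were higher and 0 lower, with a median of 2.69. Serpina3n, a secreted protease inhibitor, was at 0.907, 8.07 and 6.25 in sham + WT mice and at 683 and 219 after MCAO/R (6.32 ± 0.66, adjusted p = 0.000215). The tetraspanin Cd63 was at 88.0, 68.2 and 89.9 and then at 922 and 244 (2.71 ± 0.49, adjusted p = 0.00478). C4b, a complement component, was at 6.25 to 14.5 and then at 32.7 and 22.3 and did not pass the test (1.39, adjusted p = 0.151). Il33, an alarmin cytokine, was at 98.9, 23.3 and 14.1 and then at 983 and 53.7, so that 1 mouse carried its call: the log2 difference was 3.41 (adjusted p = 0.0475) and 0.15 (adjusted p = 0.951) without MCAO/R + WT replicate 1. The call was also lost without any 1 sham + WT mouse or MCAO/R + Lrg1-/- replicate 1 (adjusted p = 0.0504 to 0.164). DESeq2 (adjusted p = 0.0659) and a rule of at least 5 of the 6 oligodendrocyte genes (0.0614) lost it too.

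Of 3 kallikrein and receptor genes tested, 2, Klk8 and Klk9, were higher after MCAO/R. Klk8, which encodes neuropsin, was at 1.81, 1.79 and 0.781 and then at 71.6 and 12 (4.61 ± 0.95, adjusted p = 0.00888). Klk9 had 0 UMIs in sham + WT mice and 182 and 11.5 CPM after MCAO/R, at least 80.7-fold higher at a floor of 3 UMIs over the group (adjusted p = 0.0223). Its adjusted p was 0.0720, 0.0631 and 0.0676 without sham + WT replicates 1, 2 and 3. Klk7, the nearest of them to Klk6, had 0 UMIs in sham + WT mice and in MCAO/R + WT replicate 2 and did not pass the test (adjusted p = 0.108). Klk6 itself, which chose the cells, was at 969, 946 and 770 in sham + WT mice and at 722 and 481 in MCAO/R + WT mice.

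The other genes with the largest increases were low or absent in sham mice. Scube1, a secreted and surface protein, was at least 38.1-fold higher, Mchr1, the receptor of melanin-concentrating hormone, at least 32.3-fold, Aire, known as a regulator of thymic gene expression, at least 35.3-fold, Serpina3m at least 25-fold and Mt4 at least 17.4-fold, each from 0 UMIs in the 3 sham mice. Lyve1, a hyaluronan receptor, had a pooled ratio of 153 (counting interval 42.1 to 1266), the receptor tyrosine kinase Kit 147 (26.0 to 5810.4), Igsf21 142 (25.2 to 5619) and the cadherin Cdh18 118 (32.5 to 978). MCAO/R + WT replicate 1 exceeded replicate 2 in each of these genes except Aire, which was at 11.2 and 40.1. The calls of Mt4 and Igsf21 were lost without any 1 sham + WT mouse (adjusted p = 0.1 to 0.107 and 0.0574 to 0.0601) and without MCAO/R + WT replicate 1 (0.159 and 0.0825). That of Mt4 was also lost without MCAO/R + Lrg1-/- replicate 5 (0.0532) and with at least 5 of the 6 oligodendrocyte genes (0.0637). That of Aire was lost under DESeq2 (adjusted p = 0.201).

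Cholesterol synthesis was lower after MCAO/R, with 19 of 22 genes called lower, 0 higher and a median of -1.35. Hmgcs1 was at 1032, 919 and 1023 in sham + WT mice and at 167 and 193 in MCAO/R + WT mice (-2.57 ± 0.20, adjusted p = 8.72e-05). Fdps, farnesyl diphosphate synthase, differed by -2.47 and the demethylase Cyp51 by -2.27. All values after MCAO/R lay below all sham values for these 3 genes. Enzymes of myelin lipids were lower in 6 of 13 and higher in 0. Gal3st1, the sulfotransferase that makes sulfatide, was at 452, 378 and 372 and then at 159 and 145 (-1.51 ± 0.17, adjusted p = 0.000369).

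Channel and myelin genes were among those called lower as well. Of the 9 channel and gap junction genes, 4 were called lower, and 1, the potassium channel gene Kcna1, was higher (1.10 ± 0.21, adjusted p = 0.00546). Of 15 myelin protein genes, 8 were lower and 0 higher, at a median of -0.82. Pllp, plasmolipin, fell by 2.39 on the log2 scale, Tppp, a tubulin polymerization protein, by 2.30 and Omg by 2.02. Mbp was at 3319 to 3600 and then at 1877 and 2792 without passing the test (-0.69, adjusted p = 0.0981). Car2, carbonic anhydrase 2, was at 2607, 2420 and 2428 and then at 723 and 445 (-2.20 ± 0.35, adjusted p = 0.00219).

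Transcription factors of the lineage were lower in 4 of 10 and higher in 0. Olig1 was at 623, 527 and 484 and then at 206 and 197 (-1.54 ± 0.19, adjusted p = 0.000515), and Nkx2-2 and St18 differed by -1.56 and -1.58. Nkx2-9 was the second-largest decrease of the genes named for size, from 116, 143 and 127 to 10.2 and 9.43 (-3.82 ± 0.34, adjusted p = 9.61e-05). Fibin had a pooled ratio of sham to MCAO/R of 52.3 (17.4 to 258). The other largest decreases were those of Smtnl2 (-3.79), the procollagen protease Adamts2 (-3.74), 4930506C21Rik (-3.42), Serpind1, heparin cofactor II (-3.30), Depdc1b (-3.18), Gm10863 (-3.13), Padi2, which citrullinates myelin basic protein (-3.04), and Ly6g6f (-3.03).

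The genes that marked the class against Klk6-negative cells did not respond alike. S100b fell from 1082, 1056 and 1118 to 241 and 371 (-1.93 ± 0.31, adjusted p = 0.00254). Mgst3 went from 276, 235 and 245 to 58.3 and 104 (-1.73 ± 0.29, adjusted p = 0.00319), and Enpp6 from 519, 562 and 514 to 92.0 and 139 (-2.31 ± 0.29, adjusted p = 0.000653). Hopx was at 500, 320 and 349 and then at 474 and 381, with groups that overlap (0.02 ± 0.34, adjusted p = 0.982), and Anln overlapped too (-0.46 ± 0.34, adjusted p = 0.424). Anxa5 was at 396, 342 and 296 and then at 155 and 213 (-1.01 ± 0.26, adjusted p = 0.0242), a call lost without MCAO/R + WT replicate 1 (adjusted p = 0.15) and without sham + WT replicate 1 or 2 (0.0864 and 0.0751). Apod was at 4453, 5423 and 4739 and then at 9963 and 14708 (1.23 ± 0.30, adjusted p = 0.0211), a call lost without any 1 sham + WT mouse or MCAO/R + WT replicate 2 (0.0742 to 0.0987). Of the genes of other cells, 2 of 6 endothelial ones (Itm2a and Pltp) and 1 of 6 astrocyte ones (Slc1a3) were lower after MCAO/R and 1 of 3 precursor ones (Vcan) was higher. Erythroid transcripts summed to 8.97 to 18.8 CPM in sham and 7.59 to 18.4 CPM after MCAO/R, microglial ones to 546 to 790 and 727 to 1206 CPM, and neutrophil ones to 3.63 to 8.07 and 19.4 to 63.6 CPM, with 0 genes of these 3 lists called. The part of other cells in the surgery differences was not tested.

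**Figure D4:**
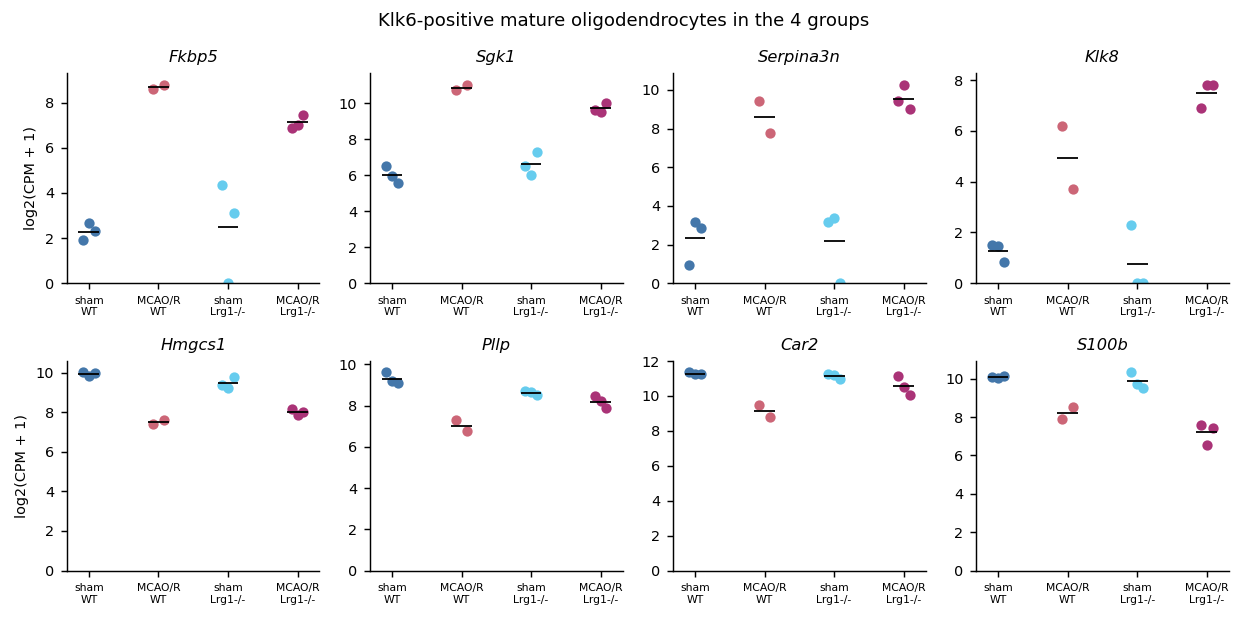
Levels in Klk6-positive cells as log2(CPM + 1) (y axis) for 8 genes in the 4 groups (x axis). Points are mice and black lines are means of the log2 values. Fkbp5, Sgk1, Serpina3n and Klk8 lie higher after MCAO/R than after sham and Hmgcs1, Pllp, Car2 and S100b lower in WT mice, and the sham + Lrg1-/- points rest on 14, 4 and 4 members.

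Whether the response to MCAO/R differed between the classes was tested as the difference of the 2 WT effects within the same mice. On the log2 scale, the increases of Ptgds and Cd63 were larger in Klk6-positive cells, and Uchl1 and Tubb3 had a lower effect there. The members themselves differed in Klk6: 63 of 191 had 20 or more of its UMIs in sham + WT mice and 48 of 271 in MCAO/R + WT mice. The part of this shift in the differences of effects was not tested. Of 13113 genes, 50 were called (0.381%), 24 higher and 26 lower. After thinning to 2000 UMIs, 9 of the 13 named here lost their calls, and Ptgds, Cd63, Il33 and Mt1 kept theirs. Ptgds rose from 842, 235 and 243 to 7506 and 6748 in Klk6-positive cells, while cells with 0 Klk6 UMIs went from 9457, 9930 and 9502 to 19357 and 26133. The difference of the effects was 3.0 ± 0.46 on the log2 scale (adjusted p = 0.00673). Cd63 went from 322, 286 and 298 to 410 and 267 in the other class, where the groups overlapped, and the effects differed by 2.36 ± 0.36 (adjusted p = 0.00673).

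Other genes with a higher effect in Klk6-positive cells were Kit (7.02, a fitted value that rests on 1 UMI in the sham + WT members), Klk8 (5.27), Il33 (4.59), the protease inhibitor Spint2 (3.23) and Mt1 (2.21). Il33 was at 524, 446 and 488 and then at 207 and 69.2 in the other class, and in the Klk6-positive class only replicate 1 of the MCAO/R + WT group exceeded every sham mouse. The adjusted p of these differences was 0.0657 to 0.0923 for Klk8, Spint2 and Mt1 without sham + WT replicate 1, and 0.0558 for Il33, Spint2 and Mt1 without sham + WT replicate 3 (log2 differences 4.07, 3.41 and 2.24). Mgst3 fell more in Klk6-positive cells (-1.35 ± 0.20, adjusted p = 0.00610), where the other class was at 26.0, 20.6 and 20.8 and then at 15.1 and 20.2. Thinned to 2000 UMIs, Kit, Klk8, Spint2 and Mgst3 differed by 6.10, 6.22, 8.51 and -0.90, with adjusted p from 0.978 to 0.984.

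Uchl1, Tubb3, Tubb2a, Tubb2b and Tmsb10, picked from the 26 lower calls after their values were seen, had a lower effect of MCAO/R in Klk6-positive cells. Uchl1, a neuronal ubiquitin hydrolase, was at 205, 200 and 198 in Klk6-positive cells of the sham + WT mice and at 204 and 232 after MCAO/R, whereas the other class went from 11.9, 11.5 and 11.4 to 65.6 and 75.3. These effects differed by -2.54 ± 0.22 (adjusted p = 6.96e-05). Tubb3, a beta-tubulin, was at 348, 354 and 316 and then 830 and 706 in Klk6-positive cells and at 53.8, 47.4 and 54.0 and then 443 and 370 in the other class, with effects that differed by -1.85 ± 0.20 (adjusted p = 0.000407). Tubb2a was at 97.1, 65.5 and 50 and then 21.5 and 22.3 in Klk6-positive cells against 18.6, 13.4 and 14.5 and then 26.9 and 20.1 (-2.29 ± 0.28, adjusted p = 0.00135). Tubb2b differed by -2.25 and Tmsb10, a thymosin that binds actin, by -1.59. The call of Tubb2b was lost without sham + WT replicate 1 or 3 or MCAO/R + WT replicate 2 (adjusted p = 0.128, 0.0664 and 0.103). After thinning to 2000 UMIs the 5 calls were lost, at -1.19 for Uchl1 (adjusted p = 0.726), -1.30 for Tubb3 (0.0789), -3.56 for Tubb2a (0.726), -1.48 for Tubb2b (0.984) and -1.34 for Tmsb10 (0.286). Tubb2a and Tubb2b are similar genes whose reads may be shared, so that the level of each is uncertain. Shared reads were not measured.

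The genotypes were compared after MCAO/R, where loss of Lrg1 cannot be told apart from vendor, substrain and age. In MCAO/R + Lrg1-/- mice, 4 of 13 glucocorticoid-responsive genes, Fkbp5 among them, were lower than in MCAO/R + WT mice, and 5 of 22 cholesterol and 2 of 15 myelin protein genes were higher. Of 11006 genes tested, 618 were called (5.62%), 313 higher (2.84%) and 305 lower (2.77%). This count rests on the spread of all 8 libraries: with only the 5 libraries of the 2 groups, 23 genes were called, and 29 of 34 called genes that were followed singly (those named below and Rps6) lost their calls. It was 140 (34 higher and 106 lower) without MCAO/R + WT replicate 2 and 1010 without MCAO/R + WT replicate 1.

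Transcripts of erythroid and choroid plexus cells differed widely between these groups, while the neutrophil sums overlapped. Erythroid transcripts summed to 7.59 and 18.4 CPM in the Klk6-positive cells of the MCAO/R + WT group and to 11517 to 19496 CPM in MCAO/R + Lrg1-/- mice, with 5 of 5 genes called higher. Choroid plexus transcripts summed to 87.4 and 196 against 3139 to 7162 CPM, with 5 of 5 higher, and microglial ones to 727 and 1206 against 1337 to 3426 CPM, with 2 of 8 higher. Neutrophil transcripts summed to 19.4 and 63.6 against 10.1, 761 and 544 CPM, with 2 of 4 genes higher at a median log2 difference of 3.69. Cells with 0 Klk6 UMIs of the MCAO/R + Lrg1-/- group also held at least 15489.9 CPM of erythroid transcripts. Ribosomal protein genes moved the same way, with 28 of 80 higher, 0 lower and a median of 0.89, against 0.01 over all genes. Rpl12 was at 387 and 182 and then at 502, 1103 and 667 (1.55, adjusted p = 0.0306), and its call was lost without MCAO/R + WT replicate 2 (1.08, adjusted p = 0.193), MCAO/R + Lrg1-/- replicate 2 (1.21, 0.0571) or any 1 sham + WT mouse (0.0630 to 0.0666). The part of other cells in the differences that follow was not tested.

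Fkbp5 was at 385 and 437 in MCAO/R + WT mice and at 118, 128 and 175 in MCAO/R + Lrg1-/- mice, which did not overlap (-1.41 ± 0.19, adjusted p = 0.00424). Ddit4, which inhibits mTOR signalling, was at 228 and 312 and then at 58.9, 32.1 and 63.6 (-2.29 ± 0.30, adjusted p = 0.00409). These 2 calls held without any 1 library. That of Fkbp5 was lost with only the 2 groups (-1.43, adjusted p = 0.0526) and after thinning to 2000 UMIs (-0.84, 0.209). That of Ddit4 was narrowly lost with the replicate number as a block (-2.50, adjusted p = 0.0500037). Of the 13 glucocorticoid genes 4 were lower and 0 higher, at a median of -1.11, among them also Sgk1 and Pdk4. Sgk1 was at 1692 and 2064 and then at 796, 740 and 1020 (-1.01, adjusted p = 0.0437). This call was lost without each of 6 libraries, at -0.88 without MCAO/R + WT replicate 2. It was also lost with doublets left out (adjusted p = 0.0520), with at least 5 of the 6 oligodendrocyte genes (0.0620) and after thinning (0.124). Pdk4, a kinase that slows glucose oxidation, differed by -2.32 and lost its call without MCAO/R + WT replicate 2 or MCAO/R + Lrg1-/- replicate 2 (adjusted p = 0.114 and 0.0677).

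Of 22 cholesterol genes, 5 were higher and 0 lower, at a median of 0.52. Fdps was at 56.8 and 58.9 against 109, 108 and 107 (1.03 ± 0.20, adjusted p = 0.0191) and Cyp51 at 67.5 and 49.0 against 153, 96.4 and 112 (1.17 ± 0.24, adjusted p = 0.0228). Without MCAO/R + WT replicate 2 their adjusted p was 0.112 and 0.182, and after thinning to 2000 UMIs Fdps differed by 0.20 (adjusted p = 0.852) and Cyp51 turned to -0.042. Hmgcs1, at 167 and 193 against 283, 230 and 253, did not pass the test (0.63, adjusted p = 0.0766) and turned to -0.14 after thinning. The thinned fits lack MCAO/R + Lrg1-/- replicate 1, the mouse with the highest value of each of these genes after MCAO/R.

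Myelin protein genes were higher in 2 of 15 and lower in 0, and lineage factors higher in 2 of 10 and lower in 0. Tppp was at 70.0 and 47.1 against 190, 124 and 124 (1.44 ± 0.26, adjusted p = 0.0134) and Pllp at 156 and 108 against 349, 303 and 235 (1.29 ± 0.26, adjusted p = 0.0205), and after thinning they differed by 1.56 and 0.28 without passing the test (adjusted p = 0.124 and 0.745). St18 differed by 1.36, Nkx2-2 by 1.01 and Car2, at 723 and 445 against 2258, 1455 and 1077, by 1.59. Without MCAO/R + WT replicate 2 the log2 differences were 1.14, 1.02, 1.13, 0.90 and 1.25 in that order, with adjusted p from 0.104 to 0.195, and St18, Nkx2-2 and Car2 also lost their calls without some sham + WT mice (0.0507 to 0.0556). Nkx2-2 did so as well without MCAO/R + Lrg1-/- replicate 2 or 5 (0.0633 and 0.0535).

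The largest increases by the naming rule were those of Tmem132d (3.16), the complement gene C4b (2.92), Fgfrl1, a receptor of the FGF family that lacks a kinase (2.76), Csmd2 (2.55), Klk8 (2.39), the netrin receptor Dcc (2.29), Ttc9 (2.24), filamin C (Flnc, 2.23), Adamtsl1 (1.99) and adducin 3 (Add3, 1.84). Dcc, at 28.6 and 43.2 against 229, 155 and 115 (adjusted p = 0.00410), was the only one of these that kept its call without any 1 library, but not after thinning (0.0575) or with only the 2 groups (0.0526). C4b was at 32.7 and 22.3 against 332, 139 and 106 (adjusted p = 0.0106). Without MCAO/R + WT replicate 2, C4b differed by 2.60 (adjusted p = 0.0625), Tmem132d by 2.11, Fgfrl1 by 2.08, Csmd2 by 1.82, Ttc9 by 1.52, Flnc by 1.57, Adamtsl1 by 1.53 and Add3 by 1.37, with adjusted p up to 0.237. Klk8, at 71.6 and 12 against 120, 222 and 220, kept its call without that mouse but lost it without any 1 sham + WT mouse or MCAO/R + Lrg1-/- replicate 2 or 5 (adjusted p = 0.0633 to 0.0670).

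Csmd2 (0.0515), Ttc9 (0.0857) and Flnc (0.125) also lost their calls without MCAO/R + Lrg1-/- replicate 2, Flnc without MCAO/R + Lrg1-/- replicate 1 (0.0546) and without each sham + WT mouse (0.0700 to 0.0804), Ttc9 without sham + WT replicates 2 and 3 (0.0508 and 0.0567) and Adamtsl1 without sham + WT replicate 1 (0.0502). The call of Klk8 was also lost under DESeq2 (2.30, adjusted p = 0.0716).

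Setdb2, Phactr3 and Lrrtm4 were among the largest decreases by the naming rule. Setdb2, a histone methyltransferase gene, was at 114 and 193 in MCAO/R + WT mice and at 15.2, 10.5 and 12.4 in MCAO/R + Lrg1-/- mice, near the 18.1, 15.3 and 13.3 of the sham + WT group (-3.53 ± 0.28, adjusted p = 0.000135). Phactr3, a regulator of protein phosphatase 1 and actin, was at 944 and 1780 against 84.2, 182 and 212 (-2.93 ± 0.33, adjusted p = 0.00182), and Lrrtm4, a synaptic adhesion gene, at 50.6 and 40.1 against 1.68, 1.0 and 0.922 (-5.20 ± 0.48, adjusted p = 0.000514). All 3 kept their calls without any 1 library. So did Mdm1 (-4.04), Ccdc187 (-3.81) and Gpr158 (-3.22), and Lancl3 (-5.08) without each of the 5 libraries whose removal left it tested. With only the 2 groups Lancl3, Ccdc187 and Gpr158 lost theirs (adjusted p = 0.0798, 0.0540 and 0.0570). Spink13 (-4.41), Mfsd7a (-3.37) and Ndrg4 (-2.84) lost theirs without MCAO/R + WT replicate 2 (adjusted p = 0.316, 0.182 and 0.0869). Spink13 and Mfsd7a also did so without MCAO/R + Lrg1-/- replicate 2 (0.0568 and 0.0638), and Spink13 without sham + WT replicate 1 (0.0552).

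Of the 7 Klk6 partners, 0 were called in either direction, at a median of -0.51. Hopx was at 474 and 381 against 170, 91.9 and 240 (-1.22 ± 0.34, adjusted p = 0.0598), Anln at 741 and 1068 against 687, 289 and 473 (-0.77 ± 0.33, adjusted p = 0.183) and S100b at 241 and 371 against 194, 93.4 and 171 (-0.89 ± 0.30, adjusted p = 0.0984). Ptgds was at 7506 and 6748 against 2483, 2931 and 4063 and did not pass the test (-1.04, adjusted p = 0.201). Wdfy1, whose level is known to differ between C57BL/6 substrains, was higher by 1.46 ± 0.21 (adjusted p = 0.00538), at 25.1 and 29.8 against 69.0, 70.3 and 69.6, and the sham + Lrg1-/- mice had 62.6, 64.7 and 97.9.

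A last test asked whether the genotype effect after MCAO/R differed between the classes. Anxa5 and 5 genes of the interferon and MHC class I list had a lower effect in Klk6-positive cells, and Olig1 and Olig2 a higher one. Of 13113 genes, 112 were called (0.854%), 26 higher and 86 lower. Of the 11 named here, 8 lost their calls after thinning to 2000 UMIs and 7 with at least 5 of the 6 oligodendrocyte genes, while Anxa5 and Spint2 kept theirs under both. Among the lower ones were 6 of 8 microglial genes and 2 of 4 neutrophil genes, and microglial transcripts summed to 3446 to 7213 CPM in the cells with 0 Klk6 UMIs of the MCAO/R + Lrg1-/- group against 1337 to 3426 CPM in its Klk6-positive cells. Their part in the other calls was not tested, nor was that of the erythroid and choroid plexus transcripts given above. Leaving out 1 library does not test a background that the MCAO/R + Lrg1-/- mice share.

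Anxa5 was at 155 and 213 in the Klk6-positive cells of the MCAO/R + WT group and at 87.5, 116 and 168 in MCAO/R + Lrg1-/- mice. In cells with 0 Klk6 UMIs it was at 33.9 and 31.2 and then at 79.3, 98.8 and 86.4, with groups that did not overlap. The effects differed by -2.01 ± 0.24 (adjusted p = 0.00111). Spint2 differed by -3.99 ± 0.43 (adjusted p = 0.000456): it was at 16.9 and 25.1 and then at 18.5, 6.53 and 12.4 in Klk6-positive cells, and at 2.09 and 2.32 and then 30.4, 9.76 and 21.4 in the other class. Both calls held without any 1 library. Olig1 (1.21, adjusted p = 0.0160) and Olig2 (1.71, adjusted p = 0.0182), which encode lineage factors, had a higher effect in Klk6-positive cells. Olig2 was at 38.3 and 18.9 and then at 47.1, 59.3 and 42.9, against 95.3 and 90.6 and then 80.6, 45.0 and 46.0. Without MCAO/R + Lrg1-/- replicate 5 the adjusted p was 0.0678 and 0.0714, and without MCAO/R + WT replicate 2 it was 0.0710 and 0.127. After thinning they differed by 0.58 and 2.31 (adjusted p = 0.814 and 0.399). Pllp (0.95) and Tppp (0.83) were called too, and lost the call without 4 libraries and without each of the 8 (adjusted p up to 0.275 and 0.383).

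Interferon-stimulated genes turned on 1 mouse. Of the 20 genes of the list, 5 were lower in this test and 0 higher, at a median of -1.71. Ifit3, an antiviral effector, was at 284 in MCAO/R + WT replicate 1 and at 2.09 in replicate 2, with 40.4, 11.0 and 6.91 in MCAO/R + Lrg1-/- mice and 3.63, 0.897 and 4.69 in sham + WT mice. Isg15, a ubiquitin-like protein, was at 67.5 and 5.50 and then at 10.1, 25.6 and 8.30. Bst2, tetherin, was at 101 and 6.81 and then at 33.7, 56.7 and 27.2, and B2m, the light chain of MHC class I, at 221 and 89.0 and then at 168, 212 and 188. The same replicate was the higher one in every case, and cells with 0 Klk6 UMIs of that mouse held 12.1 CPM of Ifit3.

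The differences of effects were -4.40 for Ifit3, -2.56 for Isg15, -2.10 for Bst2, -1.97 for the transcription factor gene Irf7 and -1.14 for B2m (adjusted p = 0.0173, 0.0420, 0.0303, 0.0407 and 0.0167). Without MCAO/R + WT replicate 1 they were -1.42, -1.21, -1.01, -0.95 and -0.88, with adjusted p from 0.0639 to 0.654. In the plain genotype comparison Ifit3 went from -3.09 (adjusted p = 0.156) to 3.07 without that mouse, and in the surgery comparison from 5.34 (adjusted p = 0.0423) to -0.67. The calls of Ifit3 in that comparison were also lost without any 1 sham + WT mouse (0.124 to 0.142). Those of Irf7, Isg15 and Bst2 in the class test were lost without further libraries, MCAO/R + Lrg1-/- replicates 1 and 5 and sham + WT replicate 1 for each, MCAO/R + Lrg1-/- replicate 2 for Irf7 and sham + WT replicate 3 for Isg15 (adjusted p = 0.0543 to 0.195), and that of Ifit3 without MCAO/R + Lrg1-/- replicate 5 (0.0714) and under DESeq2 (-3.52, adjusted p = 0.281).

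The sequence upstream of 4 of these genes is shown because it holds the letters of the interferon-stimulated response element on either strand. They are RefSeq sequences of GRCm38.p6, 170 bases that end 1 base before the annotated start, printed 5′ to 3′ on the strand of the gene with matches in capitals.
Ifit3: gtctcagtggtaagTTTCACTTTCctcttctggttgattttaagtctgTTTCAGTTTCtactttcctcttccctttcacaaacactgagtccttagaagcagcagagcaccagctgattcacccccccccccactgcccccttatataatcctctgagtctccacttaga
Isg15: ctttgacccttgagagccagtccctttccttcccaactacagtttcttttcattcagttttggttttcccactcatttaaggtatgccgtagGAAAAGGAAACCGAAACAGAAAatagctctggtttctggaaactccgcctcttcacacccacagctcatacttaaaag
Bst2: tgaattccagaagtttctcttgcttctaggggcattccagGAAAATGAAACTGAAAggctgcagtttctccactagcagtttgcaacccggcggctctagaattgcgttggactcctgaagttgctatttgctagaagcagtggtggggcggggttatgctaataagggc
B2m: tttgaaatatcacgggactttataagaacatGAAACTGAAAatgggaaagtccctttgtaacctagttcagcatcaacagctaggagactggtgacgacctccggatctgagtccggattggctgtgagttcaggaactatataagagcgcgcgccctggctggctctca
They lie at chr19:34583359-34583528 (Ifit3, plus strand), chr4:156200819-156200988 (Isg15, minus strand), chr8:71537473-71537642 (Bst2, minus strand) and chr2:122147517-122147686 (B2m, plus strand). Of the 15 genes of the list found in the RefSeq table, 6 held the letters in the 250 bases upstream, against 3.46% of all 27025 genes there. Irf7, also called in the test above, was not among these 6. The list was made of interferon and MHC class I genes, so that this share describes the list and not these data. Matches may overlap each other. A match is a description of letters and says nothing of binding.

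**Figure D5:**
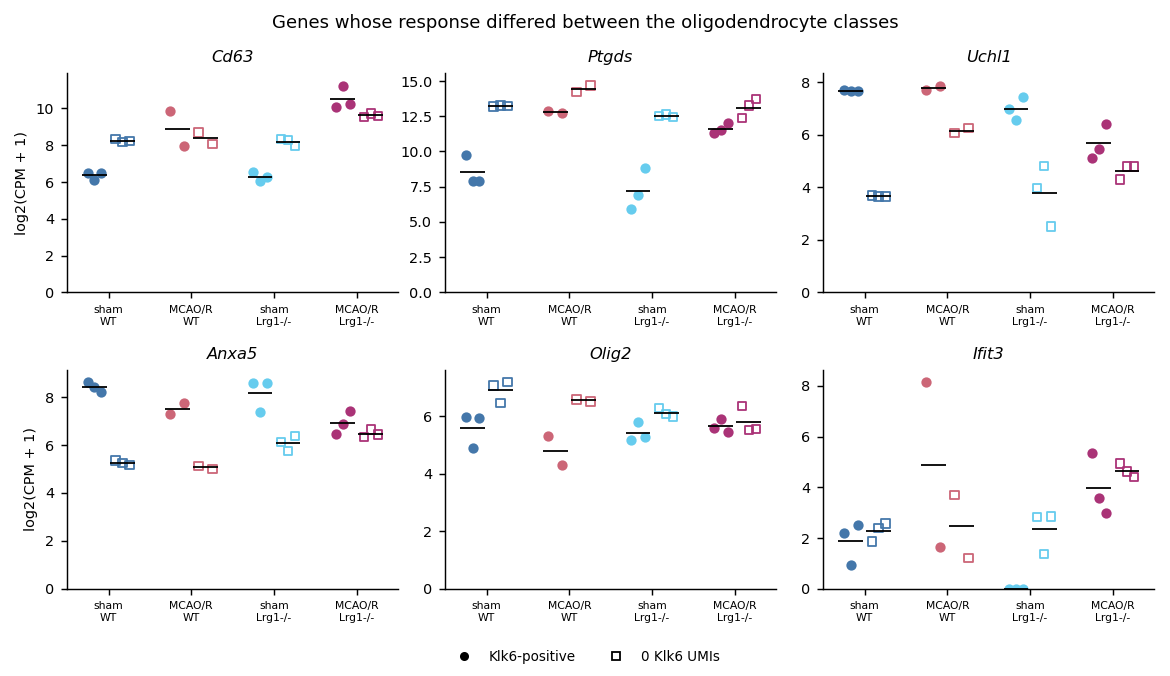
Levels as log2(CPM + 1) (y axis) of 6 genes in Klk6-positive cells (filled circles) and in mature oligodendrocytes with 0 Klk6 UMIs (open squares) in the 4 groups (x axis). Points are mice and black lines are means of the log2 values. For Ifit3 the Klk6-positive cells of the 2 MCAO/R + WT mice lie at 284 and 2.09 CPM, and for Uchl1 the Klk6-positive cells stay near 200 CPM in both WT groups while the other class rises.

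Values of the sham + Lrg1-/- mice are given without a test, since their members numbered 14, 4 and 4. Fkbp5 was at 19.6, 0 and 7.53, Sgk1 at 90.0, 64.7 and 158 and Hmgcs1 at 673, 592 and 866. S100b was at 1287, 841 and 738, and Hopx at 489, 222 and 467. For Sgk1, S100b and Hopx the range overlapped that of the sham + WT mice, and for Hmgcs1 each value lay below it.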

How the data were processed

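Single-cell RNA-seq was done on the right brain of 11 mice. The deposited values were raw UMI counts per gene and barcode, which the authors made with Cell Ranger and STAR on mm10 without pooling mice, and no normalization had been applied. Cells were limited and chosen as the report opens with. Doublets were scored as Scrublet does, at an assumed rate of 6%, and the scores were used only in an alternative. Counts were summed per mouse and class, and libraries with at least 20 members and 20 cells with 0 Klk6 UMIs entered the fits (8 libraries). edgeR 4.0.16 in R 4.3.3 (filterByExpr, TMM, quasi-likelihood test) was fitted over all genes, with the mouse as a block between the classes, and p-values were adjusted over all genes tested. Shares were compared by exact permutation tests. Python 3.11.15, numpy 2.4.6, pandas 2.3.3 and scipy 1.17.1 did the rest, and the fits were tested on simulated data. The effect of MCAO/R on the class difference was tested in WT mice alone, although a mean over genotypes had been planned, since no sham + Lrg1-/- library reached 20 members.

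The members and the gene lists were chosen with earlier results of these data known. Genes were named as the 10 largest increases and decreases among those called, with every mouse moving one way (between groups, values that do not overlap), at least 20 CPM on the higher side, outside the lists of other cells and, between groups, no lower in the members than outside mature oligodendrocytes. Genes of the lists were also named, and Uchl1, Tubb3, Tubb2a, Tubb2b and Tmsb10 were added after their values were seen. Alternatives were stricter rules for the cells, thinning, DESeq2 1.42.0, its size factors, no filter on low counts, a replicate block, only the groups compared and leaving out each library. Nothing says that replicates differ in more than the mouse, and p-values measure the spread between these samples. Intervals cover counting error only. Sequences are from RefSeq.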

Additional observations from a re-analysis of the deposited data

Results flagged for a closer look

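Each result below is a gene whose effect differed between Klk6-positive cells and mature oligodendrocytes with 0 Klk6 UMIs, by the edgeR test of the difference itself. For the genotype effect after MCAO/R, the log2 differences were -2.01 for Anxa5, -3.99 for Spint2, -4.40 for Ifit3, -2.56 for Isg15, -2.10 for Bst2, -1.97 for Irf7 and -1.14 for B2m, all lower in Klk6-positive cells. They were 1.21 for Olig1, 1.71 for Olig2, 0.95 for Pllp and 0.83 for Tppp. Anxa5 and Spint2 kept their calls without any 1 library, and the 5 interferon and MHC class I genes lost theirs without MCAO/R + WT replicate 1. Olig1, Olig2, Pllp and Tppp each lost the call without at least 1 library. After thinning to 2000 UMIs, B2m, Bst2, Irf7, Isg15, Olig1, Olig2, Pllp and Tppp lost theirs. The part of other cells in these genotype differences was not tested. Apart from thinning, nor was that of the lower depth of the MCAO/R + Lrg1-/- cells.

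For the effect of MCAO/R in WT mice, the differences were 3.0 for Ptgds, 2.36 for Cd63, 4.59 for Il33, 5.27 for Klk8, 3.23 for Spint2, 2.21 for Mt1 and 7.02 for Kit. They were -1.35 for Mgst3, -2.54 for Uchl1, -1.85 for Tubb3, -2.29 for Tubb2a, -2.25 for Tubb2b and -1.59 for Tmsb10. The group sizes of 3 and 2 mice limit these tests, and Il33, Klk8, Spint2, Mt1 and Tubb2b each lost the call without at least 1 library. After thinning to 2000 UMIs, Uchl1, Tubb3, Tubb2a, Tubb2b, Tmsb10, Mgst3, Kit, Klk8 and Spint2 lost theirs.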

How the results depend on the processing

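The genotype difference of the share was 2.67 points with 5 of the 6 oligodendrocyte genes and 1.53 with a mitochondrial limit of 10%. After thinning to 1000 UMIs, with a Klk6 limit of 1 UMI in place of 2, it was 0.591. Each is of opposite sign to the -0.478 reported, and without 1 library the difference ran from -1.92 to 1.46. The surgery difference was 4.16 to 7.53 without 1 library. Thinning to 2000 UMIs called 1052 genes between the classes, 136 between genotypes, 205 between surgeries, 26 and 7 for the differences of the genotype and surgery effects, where fewer genes were tested, and moved the median of all genes between the classes to -0.12. Without a filter on low counts the last 4 were 1685, 2195, 428 and 311. DESeq2 called 76 for the difference of surgery effects, and 5 of the 6 genes 22 for that of genotype effects. With only the groups compared, 23 genes differed between genotypes. Deviations from the group mean correlated at -0.243 to 0.0848 between mice with the same replicate number. With so few mice per group this cannot tell whether such mice were paired. The replicate block called 77 genes between genotypes, 372 between surgeries and gave Hopx -0.015 between surgeries, and 22 of 34 and 18 of 51 genes followed singly lost their calls under it. Without 1 library the counts ran from 2399 to 2844 (classes), 140 to 1010 (genotypes), 791 to 1720 (surgeries), 22 to 152 and 23 to 169 (differences of effects), and a lone MCAO/R + WT mouse was then assumed to vary like the other groups.

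Thinning, whose fits lack MCAO/R + Lrg1-/- replicate 1, turned Cyp51 to -0.042 and Hmgcs1 to -0.14 between genotypes and Hopx to -0.013 between surgeries. Without 1 library Hopx ran from -0.14 to 0.24 between surgeries (-0.10 without sham + WT replicate 2 and -0.05 without replicate 3), and Ifit3 from -0.67 to 6.38 there and from -4.18 to 3.07 between genotypes. The cause of these changes was not tested. Of named genes and settings, 794 of 796 pairs kept direction and call between the classes, 591 of 734 between genotypes and 952 of 1019 between surgeries. For the differences of effects between the classes it was 132 of 187 (genotype) and 203 of 221 (surgery). The number of cells limits the sham + Lrg1-/- mice most, whose 14, 4 and 4 members summed to 108181 to 255695 UMIs.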

Other observations

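Other gene groups are set beside the 21.7% of all genes called between the classes, 8.65% higher and 13.1% lower. Nuclear genes of oxidative phosphorylation were higher in 4 of 82 and lower in 0, at a median log2 difference of 0.20, and ribosomal protein genes were called in 0 of 80. Apoptosis genes were lower in 7 and higher in 1 of 24, glutathione genes higher in 5 and lower in 4 of 18, and enzymes of myelin lipids higher in 5 and lower in 3 of 14. Comparisons with the sham + Lrg1-/- group across genes are not given, since with a minimum of 10 members it holds 1 library.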
